A study of Mus musculus with 11 samples.

Results

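The genes described here are 10 that are commonly used to mark the sinusoidal endothelial cells of the liver: Stab1, Stab2, Lyve1, Clec4g, Ehd3, Ptprb, Kdr, Pecam1, Oit3 and Bmp2. They were chosen by name from knowledge of this cell type, and all 10 had a row among the 13636 genes of the liver table. The 11 libraries came from livers of male C57BL/6J mice that were fed a Western diet from 8 weeks of age for a month and were then injected for 6 weeks. There were 4 libraries after PBS, 3 after a scramble oligomer and 4 after a miR-30c mimic, and both oligomers were given at a dose that rose from 2.5 to 5.0 to 7.5 mg/kg. The groups therefore share the diet and the injections, and no group without either was analysed here. The labels do not say whether each library is a separate mouse, so a p-value here is set against a spread among libraries that may be in part technical.

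Sinusoidal endothelial cells line the small vessels between the plates of hepatocytes. They have open pores and no continuous basement membrane, and they clear hyaluronan, collagen fragments, modified lipoproteins and many oligonucleotides from blood through scavenger receptors such as the stabilins. They also send signals to hepatocytes, of which BMP2 and BMP6 are known to drive hepcidin, the hormone that limits iron uptake. In injury they can lose their pores and take on genes of ordinary capillaries.

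The sequences that bear on these genes are of 3 kinds: the miRNA that was mimicked, the only match to its seed among their 3′ UTRs, and the promoters of members that moved in opposite directions. The mature miRNAs are credited to RefSeq, with the seed (bases 2 to 8) in capitals, and the family members miR-30a and miR-30e are shown because they share it. The oligomers that were injected may carry chemical changes, which are not given in the sources used here.
miR-30c-5p: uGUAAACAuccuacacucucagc
miR-30a-5p: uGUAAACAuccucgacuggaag
miR-30e-5p: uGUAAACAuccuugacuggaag

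A perfect match to the 7 seed bases (TGTTTAC) was searched on the transcript's strand in the longest annotated 3′ UTR of each gene. Of the 10 members only Bmp2 had one, while 15.9% of the 11480 genes of the table with an annotated 3′ UTR had at least 1. The match lies 946 bases into a 3′ UTR of 1170 bases, is not followed by an A, and is shown in capitals in a window of 29 bases on the plus strand, at chr2:133562650-133562678 of mm10. A match is a description of the letters and does not show that the site is used.
Bmp2 site: cttgtattttgTGTTTACcctatcagcaa

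The promoter table of RefSeq (GRCm38.p6) held 5 members, Stab1, Stab2, Clec4g, Ehd3 and Kdr, each with 250 bases before and 50 after the transcript start. These windows were searched on both strands for AGATAA, letters bound by GATA factors, and for AGGAAG, letters bound by ETS factors, since GATA4 and ETS proteins are known regulators of this endothelium. Among 32851 promoters of the table, 11.2% held the first and 35.4% the second. AGATAA had no match in the 5 windows, and AGGAAG or its reverse complement matched in 4 of them, 1 time each in Stab1, Stab2 and Ehd3 and 3 times in Clec4g. The windows of Stab1, Stab2 and Ehd3 are printed in the direction of the gene with the match in capitals, because Stab1 and Ehd3 changed most firmly in opposite directions and Stab2 served as their common reference. They lie at chr14:31168592-31168891 on the minus strand, at chr10:87007893-87008192 on the minus strand and at chr17:73804591-73804890 on the plus strand.
Stab1 promoter: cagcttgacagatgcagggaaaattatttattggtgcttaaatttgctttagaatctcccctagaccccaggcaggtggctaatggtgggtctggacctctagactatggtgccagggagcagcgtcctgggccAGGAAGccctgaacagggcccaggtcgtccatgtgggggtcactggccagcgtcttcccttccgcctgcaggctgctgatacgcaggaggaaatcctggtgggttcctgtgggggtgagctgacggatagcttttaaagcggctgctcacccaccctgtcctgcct
Stab2 promoter: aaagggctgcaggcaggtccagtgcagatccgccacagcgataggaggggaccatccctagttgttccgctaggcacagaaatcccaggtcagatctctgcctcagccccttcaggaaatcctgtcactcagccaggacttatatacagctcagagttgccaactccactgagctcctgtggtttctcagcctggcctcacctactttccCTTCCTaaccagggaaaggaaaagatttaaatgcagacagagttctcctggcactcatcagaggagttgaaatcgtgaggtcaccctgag
Ehd3 promoter: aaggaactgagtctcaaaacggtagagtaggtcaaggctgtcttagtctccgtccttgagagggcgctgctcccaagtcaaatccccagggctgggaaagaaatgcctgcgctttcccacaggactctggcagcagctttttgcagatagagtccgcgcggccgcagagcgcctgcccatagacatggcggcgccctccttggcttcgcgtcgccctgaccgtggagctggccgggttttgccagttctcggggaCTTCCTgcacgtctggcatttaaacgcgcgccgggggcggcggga

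The deposited values are CPM, the reads of a gene as a share of its library, multiplied by a scaling factor per library (scaled CPM below), and every value is a whole multiple of a step, which gives 39705157 to 101380174 implied reads per library. These reads are derived from the steps and were used to describe depth, for the chi-square below and for an alternative with recomputed scaling factors. They were not tested as counts, since 9 of the 11 libraries had too few low values to check them. The recomputed factors are trimmed means of M values, by which CPM is divided. They nearly equalled the factors implied by the deposited values in all 11 libraries, as in mimic replicate 1 (1.57457 and 1.57456) and PBS replicate 3 (0.66475 and 0.664756). That alternative therefore repeats the main fit and is no separate check. The members stood on 67 implied reads at the lowest, for Lyve1 in PBS replicate 3, to 2013 at the highest. Differences are log2 changes of value + 1, a scale on which low genes change less than they did, from 1 limma fit over all 13636 genes with Benjamini-Hochberg adjustment, and a gene is called when its adjusted p is under 0.05. Both comparisons of the mimic share the mimic libraries and are not independent. Within the mimic group the libraries formed pairs: replicates 1 and 4, and 2 and 3, differed by a chi-square per degree of freedom of 61.0 and 112 over all genes, against 772 to 1332 for the other pairs. The results are therefore also given without mimic replicates 1 and 4, a choice that was made with earlier results of these data known. For the members this choice is not neutral. It removes replicate 1, the lowest of its group for 8 of the 10, and keeps replicate 2, the highest for all 10. Smaller falls and larger rises are thus favoured. The fit without mimic replicates 2 and 3 was not run.

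In mimic livers 4 of the 10 genes differed from scramble, Stab1 and Lyve1 upward and Ehd3 and Ptprb downward, and 6 were not called. Over all 13636 genes 32.0% were called, 17.3% higher and 14.7% lower (with values divided by the library total instead 40.3% higher and 0.807% lower, 41.1% in all), so the members' share is close to that background and the genes, not the count, are what is described. Against PBS 6 were called, Stab1 higher and Stab2, Ehd3, Ptprb, Kdr and Bmp2 lower (Stab2 and Bmp2 higher, not called, with library totals), while 37.1% of all genes were called, 20.0% higher and 17.1% lower (with library totals 50.5% higher and 0.880% lower, 51.3% in all). The median log2 change of the 10 was -0.24 against scramble and -0.33 against PBS, and that of all genes was 0.00 in both. Scramble and PBS did not separate for any member: 0 of 10 were called in limma, 0 of 10 had an unadjusted p under 0.05, and the share of all genes called was 0%, with 434 of 13636 genes under 0.05 unadjusted.

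**Figure D1:**
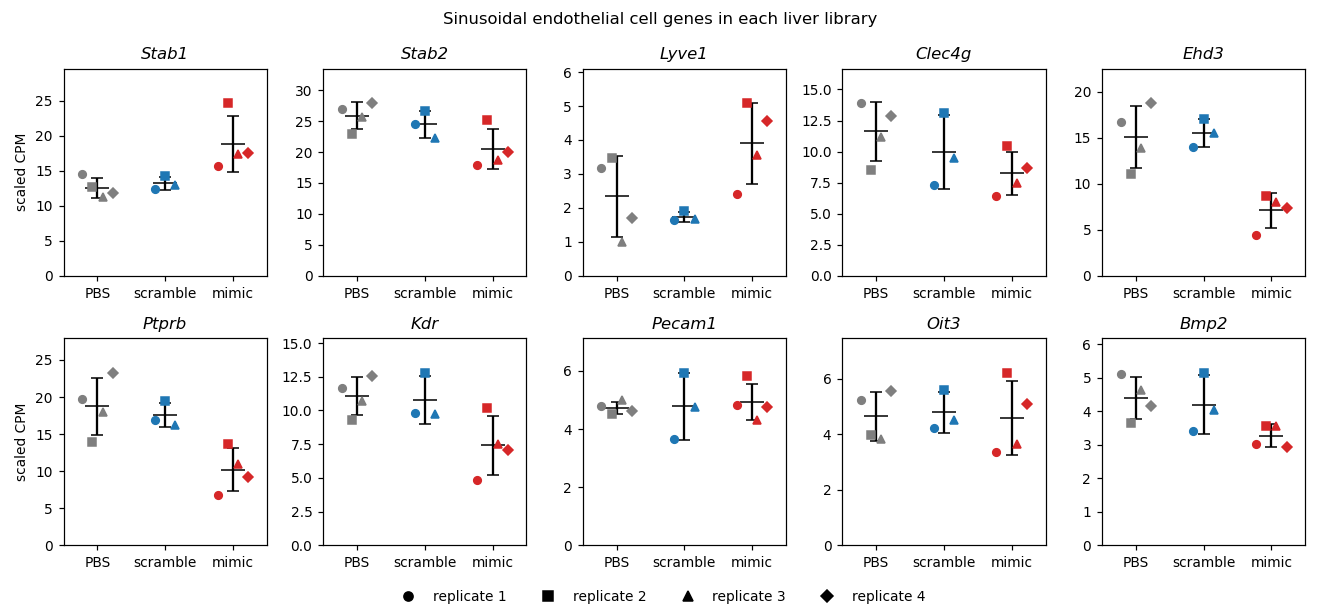
Scaled CPM of the 10 sinusoidal endothelial cell genes (vertical axes, linear, from 0) in each library of the PBS, scramble and mimic groups. Symbols are libraries by replicate number and the black bars are the group mean and SD; the mimic libraries sit above all others for Stab1 and below all others for Ehd3 and Ptprb.

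The receptors and their partners come first. Stab1 encodes stabilin-1, a scavenger receptor of sinusoidal endothelium that some macrophages also carry. Its scaled CPM was 14.5, 12.6, 11.2 and 11.9 in PBS replicates 1 to 4, 12.4, 14.3 and 12.9 in scramble replicates 1 to 3, and 15.7, 24.7, 17.4 and 17.5 in mimic replicates 1 to 4. Every mimic library was above every control library. Stab1 rose by 0.46 on the log2 scale against scramble (SE 0.14, adjusted p = 0.0230, limma) and by 0.53 against PBS (SE 0.13, adjusted p = 0.00724, limma). The change against scramble was 0.62 without mimic replicates 1 and 4, and the call was lost without scramble replicate 1 (0.42, adjusted p = 0.0838, limma) or scramble replicate 3 (0.45, adjusted p = 0.0672). Stab1 overlaps Nt5dc2 on the other strand, and although the library kit keeps the strand, the strand setting of the counting is not given in the sources used here.

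Stab2 encodes stabilin-2, the main hyaluronan receptor of these cells. It measured 27.0, 23.0, 25.6 and 27.9 scaled CPM after PBS, 24.6, 26.6 and 22.3 after scramble, and 17.9, 25.1, 18.8 and 20.0 after the mimic. Mimic replicate 2 lay inside the range of both control groups, and the other mimic libraries lay below all controls. The log2 change was -0.26 against scramble (95% interval -0.50 to -0.01, adjusted p = 0.105, limma), and Stab2 fell by 0.33 against PBS (SE 0.11, adjusted p = 0.0281, limma). Against PBS the change was -0.24 without mimic replicates 1 and 4 (adjusted p = 0.200, limma), and no call remained without PBS replicate 1, 3 or 4 or mimic replicate 1, 3 or 4, with adjusted p up to 0.0794.

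Lyve1 encodes a hyaluronan receptor of sinusoidal and lymphatic endothelium that some macrophages also carry. Its level was 3.17, 3.48, 0.994 and 1.71 scaled CPM after PBS, 1.65, 1.91 and 1.67 after scramble, and 2.40, 5.09, 3.56 and 4.57 after the mimic. The mimic libraries all lay above the scramble libraries, but the lowest of them lay below PBS replicates 1 and 2. Lyve1 rose by 0.80 against scramble (SE 0.27, adjusted p = 0.0378, limma), and its log2 change against PBS was 0.59 (95% interval 0.06 to 1.13, adjusted p = 0.0772). The rise against scramble was 0.94 without mimic replicates 1 and 4 (adjusted p = 0.0560, limma), and the call was also lost without mimic replicate 2, 3 or 4 or any 1 scramble library, with adjusted p up to 0.103. Against PBS Lyve1 was called without PBS replicate 2 (0.76, adjusted p = 0.0274, limma) or mimic replicate 1 (0.76, adjusted p = 0.0376).

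Clec4g encodes LSECtin, a C-type lectin of the sinusoid that binds glycoproteins and lymphocytes. Its values were 13.9, 8.51, 11.2 and 12.9 after PBS, 7.30, 13.1 and 9.45 after scramble, and 6.43, 10.4, 7.51 and 8.67 after the mimic, in scaled CPM. The groups overlapped, and scramble replicate 1 was lower than most mimic libraries. The log2 change was -0.23 against scramble (95% interval -0.67 to 0.22, adjusted p = 0.407, limma) and -0.44 against PBS (95% interval -0.85 to -0.04, adjusted p = 0.0819). Against PBS it was called without PBS replicate 2 (-0.57, adjusted p = 0.0275, limma) or mimic replicate 2 (-0.55, adjusted p = 0.0470).

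Ehd3 encodes an ATPase of the EHD family that moves receptors from endosomes back to the cell surface. It measured 16.7, 11.1, 13.9 and 18.8 scaled CPM after PBS and 14.0, 17.0 and 15.5 after scramble, against 4.43, 8.70, 7.97 and 7.34 after the mimic. No mimic library reached the lowest control library. Ehd3 fell by 1.06 on the log2 scale against scramble (SE 0.20, adjusted p = 0.00275, limma) and by 0.9988 against PBS (SE 0.19, adjusted p = 0.00209, limma), so that the mimic mean of 7.11 ± 1.87 (SD, n = 4) was 0.458 and 0.471 times the scramble and PBS means. This call remained when any single library was left out, with log2 changes from -1.15 to -0.87 against scramble and from -1.13 to -0.82 against PBS. Without mimic replicates 1 and 4 the changes were -0.82 and -0.76.

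Kdr and Ptprb belong to the receptors of vascular growth and their regulators. Kdr encodes VEGFR2, the main signalling receptor for VEGF-A, and Ptprb encodes VE-PTP, an endothelial phosphatase that restrains Tie2 and VEGFR2. Ptprb was 19.8, 14.0, 17.9 and 23.3 scaled CPM after PBS, 17.0, 19.4 and 16.3 after scramble, and 6.78, 13.6, 11.03 and 9.23 after the mimic. All mimic libraries were below all control libraries, mimic replicate 2 by little. Ptprb fell by 0.77 against scramble (SE 0.20, adjusted p = 0.0136, limma) and by 0.84 against PBS (SE 0.18, adjusted p = 0.00513, limma). The call against scramble was lost without mimic replicates 1 and 4 (-0.48, adjusted p = 0.0919, limma) and without scramble replicate 2 (-0.70, adjusted p = 0.0501). Ptprb overlaps 2 predicted genes on its own strand, Gm26495 and Gm47625, so some of its reads may be shared.

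Kdr measured 11.7, 9.29, 10.7 and 12.6 scaled CPM after PBS, 9.80, 12.8 and 9.72 after scramble, and 4.88, 10.2, 7.49 and 7.10 after the mimic. Mimic replicate 2 lay inside the range of both control groups. The log2 change was -0.51 against scramble (95% interval -0.91 to -0.11, adjusted p = 0.0526, limma), and Kdr fell by 0.55 against PBS (SE 0.17, adjusted p = 0.0265, limma). Without mimic replicate 2 the fall against scramble was called (-0.66, adjusted p = 0.0119, limma), as it was without PBS replicate 2. Without mimic replicates 1 and 4 Kdr stood at -0.26 against scramble (adjusted p = 0.290, limma) and -0.30 against PBS (adjusted p = 0.195). Against PBS the call was lost without PBS replicate 1, 3 or 4 or mimic replicate 1 or 4, with adjusted p up to 0.0740.

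Pecam1 encodes CD31, an adhesion molecule of all endothelium that leukocytes also carry. It was 4.78, 4.52, 5.00 and 4.62 scaled CPM after PBS and 3.65, 5.94 and 4.76 after scramble. After the mimic it was 4.81, 5.81, 4.33 and 4.75. Its log2 change was 0.05 against scramble (95% interval -0.22 to 0.32) and 0.04 against PBS (95% interval -0.21 to 0.30). Oit3, a secreted zona pellucida domain protein, ranged from 3.83 to 5.57 after PBS, from 4.24 to 5.61 after scramble and from 3.38 to 6.22 after the mimic, with log2 changes of -0.07 (95% interval -0.46 to 0.31) and -0.03 (95% interval -0.39 to 0.32). Neither gene was called. The intervals of Oit3 include falls as large as those of Stab2, and the intervals of Pecam1 do not.

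Bmp2, the ligand among the members, was 5.11, 3.65, 4.63 and 4.16 scaled CPM after PBS, 3.40, 5.15 and 4.04 after scramble, and 3.01, 3.57, 3.56 and 2.93 after the mimic. The mimic libraries lay just below the PBS libraries, and scramble replicate 1 lay among them. The log2 change was -0.27 against scramble (95% interval -0.55 to 0.00, adjusted p = 0.114, limma), and Bmp2 fell by 0.33 against PBS (SE 0.12, adjusted p = 0.0421, limma). That call was lost without PBS replicate 1, 3 or 4, mimic replicate 1 or 4 or scramble replicate 3 (adjusted p up to 0.117, limma) and without mimic replicates 1 and 4 (-0.23, adjusted p = 0.275). Bmp2 is the member with the seed match printed above.

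**Figure D2:**
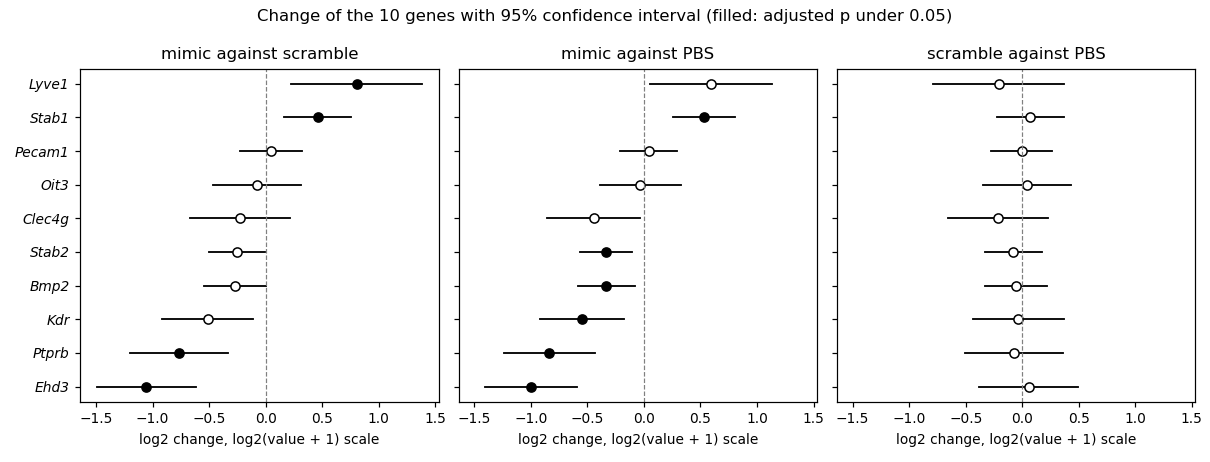
Log2 change with 95% confidence interval (horizontal axis, log2(value + 1) scale) of the 10 genes in mimic against scramble, mimic against PBS and scramble against PBS. Filled points passed an adjusted p of 0.05 over all genes; Ehd3 at -1.06 and Lyve1 at 0.80 are the ends of the order against scramble, and in scramble against PBS all intervals cross 0.

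The groups did not overlap for 2 members upward and 2 downward in mimic against scramble, where 40.8% of all genes did not overlap, and for 1 upward and 3 downward in mimic against PBS, where 31.7% did not. For scramble against PBS 0 of 10 members and 4.72% of all genes did not overlap. The 10 genes also moved together within the mimic and scramble groups. Mimic replicate 2 was the highest of its group for 10 of 10 members and scramble replicate 2 for 10 of 10, while mimic replicate 1 was the lowest for 8. After PBS the order was less uniform: replicates 1 to 4 were the highest for 3, 1, 1 and 5 members, and replicate 2 was the lowest for 7. Of 55 other endothelial genes mimic replicate 2 was the highest for 38 and scramble replicate 2 for 40, so this order was not particular to the members. It was not counted over all genes. The summed scaled CPM of the members ran from 94.1 to 123 after PBS, from 98.0 to 122 after scramble and from 69.7 to 113 after the mimic. Since these are whole livers, fewer sinusoidal endothelial cells and less RNA of these genes per cell cannot be told apart.

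Some directions depended on the scaling between libraries. When values were divided by the library total instead, the median of all genes moved to 0.49 against scramble and 0.51 against PBS, and 4 members turned from lower to higher: Stab2 (0.31 and 0.25), Bmp2 (0.19 and 0.15), Clec4g (0.30 and 0.11) and Oit3 (0.41 and 0.46). Kdr came to 0.01 and 0.00. Set against those medians, Stab2, Bmp2, Clec4g, Oit3 and Kdr still lay lower. Ehd3 (-0.53 and -0.45) and Ptprb (-0.23 and -0.28) stayed lower but were not called, and Stab1 (1.02 and 1.10) and Lyve1 (1.24 and 1.03) were called higher in both comparisons. With library totals 2 members were called higher and 0 lower against scramble, and 3 higher (Stab1, Lyve1 and Pecam1) and 0 lower against PBS, below the 41.1% and 51.3% of all genes called in that way.

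Ratios of genes within a library do not move with the scaling, so they were used to compare the members with each other. Divided by Pecam1 of the same library, Stab2, Clec4g, Ehd3, Ptprb, Kdr and Bmp2 were lower in all mimic than in all scramble libraries and Lyve1 was higher, which is 7 of 9 ratios, while the same held for 14.1% of all genes divided by Pecam1. Against PBS 6 of 9 did not overlap, Stab1 higher and Stab2, Clec4g, Ehd3, Ptprb and Kdr lower, against 22.0% of all genes. The members moved together within the mimic and scramble groups, so dividing by a member can narrow their spread while it widens that of other genes. The shares of all genes, which were 40.8% and 31.7% before division, are therefore not a like background for the members' ratios. The ratio of Ehd3 to Pecam1 was 3.20 ± 0.73 (SD, n = 4) after PBS, 3.32 ± 0.49 (n = 3) after scramble and 1.45 ± 0.39 (n = 4) after the mimic. The choice of divisor mattered. Divided by Cdh5, the cadherin of endothelial junctions, which fell by 0.37 against PBS as deposited but was higher with library totals (0.15), 4 of 10 ratios did not overlap against scramble (Stab1, Lyve1 and Pecam1 higher, Ehd3 lower; all genes 18.0%) and 2 of 10 against PBS (Stab1 and Pecam1 higher; all genes 28.4%). This second divisor was chosen after seeing the data. Relative to Cdh5, Pecam1 was 0.729 ± 0.054 after PBS, 0.764 ± 0.050 after scramble and 1.02 ± 0.096 after the mimic. A lower ratio to Pecam1 is therefore not by itself a lower level relative to endothelium. The part of leukocytes in the level of Pecam1 was not tested.

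Between the stabilins, the ratio of Stab1 to Stab2 was 0.537, 0.550, 0.439 and 0.426 after PBS, 0.505, 0.538 and 0.581 after scramble, and 0.873, 0.983, 0.928 and 0.877 after the mimic. Thus every mimic library lay above 0.87 and every control library below 0.59, and mimic replicate 2, which was high for all members, did not stand apart here. Relative to Stab2, Ehd3 was 0.579 ± 0.084 (SD, n = 4) after PBS, 0.636 ± 0.064 (n = 3) after scramble and 0.346 ± 0.074 (n = 4) after the mimic, without overlap. Lyve1 relative to Stab2 was 0.092 ± 0.051 after PBS, 0.071 ± 0.004 after scramble and 0.189 ± 0.040 after the mimic, and the mimic range began below PBS replicate 2. In all, 5 of 9 ratios to Stab2 did not overlap between mimic and scramble (Stab1, Lyve1 and Pecam1 higher, Ehd3 and Ptprb lower) and 4 of 9 between mimic and PBS (the same without Lyve1), beside 30.0% and 28.4% of all genes divided by Stab2. Ptprb relative to Kdr was 1.68 ± 0.14 after PBS, 1.64 ± 0.11 after scramble and 1.37 ± 0.08 after the mimic, the highest mimic library at 1.47 and the lowest control library at 1.51. These pairs of genes were chosen after their values were seen and carry no test. As with Pecam1, the shares of all genes are not a like background for these ratios.

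**Figure D3:**
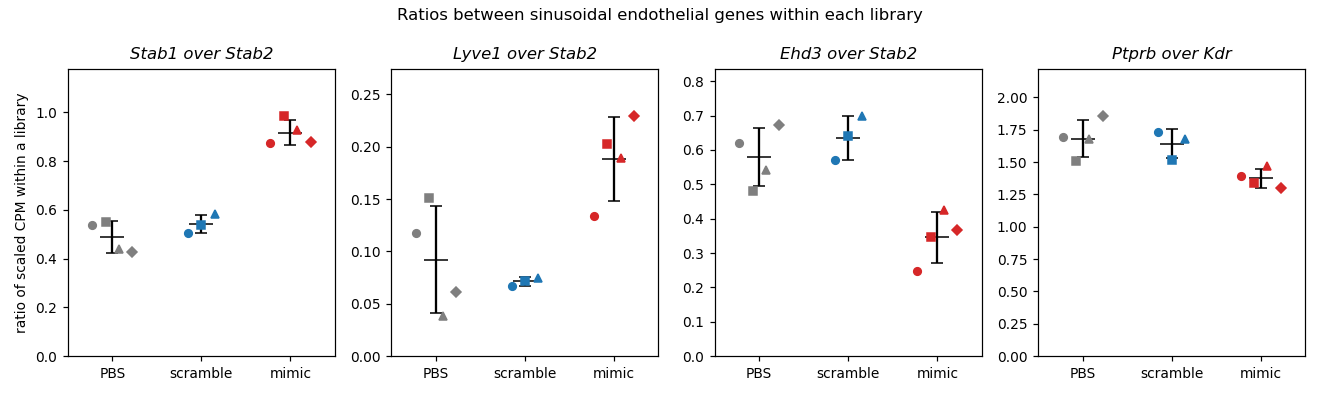
Ratio of scaled CPM within each library (vertical axes, linear, from 0) for Stab1 over Stab2, Lyve1 over Stab2, Ehd3 over Stab2 and Ptprb over Kdr, by group, with symbols by replicate number as in the plot of the 10 genes and the mean and SD in black. The ratio of Stab1 to Stab2 lies between 0.873 and 0.983 after the mimic and between 0.426 and 0.581 in the control libraries.

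Per kilobase of exon, the order of the members also shifted. After PBS the highest level was that of Clec4g (4.78 ± 0.97 scaled CPM per kilobase, SD, n = 4), followed by Ehd3 (4.13 ± 0.92) and Stab2 (3.15 ± 0.26), whose neighbours in this order overlapped. A gap without overlap separated Stab2 from Kdr (1.87 ± 0.24), and from there each gene overlapped the next down to Lyve1 (0.808 ± 0.409). After scramble Ehd3 was first (4.24 ± 0.41) and Clec4g second (4.10 ± 1.21), overlapping. After the mimic Clec4g (3.40 ± 0.71), Stab2 (2.49 ± 0.39), Stab1 (2.35 ± 0.50) and Ehd3 (1.94 ± 0.51) led, each overlapping the next, so that Stab1 stood above Ehd3. Ptprb was last after the mimic (0.791 ± 0.225) and Lyve1 (1.35 ± 0.41) stood above Kdr (1.25 ± 0.37), overlapping it.

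Macrophage genes moved in the same livers, which bears on Stab1 and Lyve1 since some macrophages carry both. Of 10 genes of monocytes and recruited macrophages, 10 rose in both comparisons, among them Gpnmb (5.17 against scramble), Lgals3 (3.17), Trem2 (2.24) and Itgam (1.86, all log2), and their summed scaled CPM was 131 to 171 after the mimic against 17.1 to 36.5 after PBS and 21.4 to 30.9 after scramble. Of 12 genes of resident Kupffer cells, 2 rose and 5 fell against scramble, the latter including Clec4f (-2.42), Cd163 (-1.74), Timd4 (-1.69) and Vsig4 (-1.69). With library totals 6 rose and 4 fell. Their summed scaled CPM was 117 to 229 after the mimic, 114 to 236 after PBS and 110 to 211 after scramble. None of the markers measured in either list was at 0 in any library, but some came near it. Timd4 was at 0.011 scaled CPM in mimic replicate 4 and Gpnmb at 0.045 in PBS replicate 3. The part of these cells in the rise of Stab1 and Lyve1 was not tested. Of 12 genes of stellate cells and fibroblasts 8 rose and 1 fell in both comparisons (10 and 0 with library totals), with Col1a1 at 3.62 and Col3a1 at 3.35 against scramble, and their summed level was 201 to 379 after the mimic against 71.4 to 111 in the control groups. The part of these cells in the members' levels was not tested either.

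Other genes of sinusoidal endothelium also went both ways, but their medians lay nearer to that of all genes than the members' medians did. Of 21 measured, 2 rose and 3 fell against scramble, with a median of -0.02, and 1 rose and 5 fell against PBS, with a median of -0.06. Lgmn, a lysosomal protease that macrophages also carry, rose by 1.45 and 1.26, and Tspan7, a tetraspanin, rose by 0.38 against scramble (0.19 against PBS, not called). Mrc1, the mannose receptor of sinusoidal endothelium and macrophages, fell by 0.54 and 0.69, and Cyp26b1, which breaks down retinoic acid, fell by 0.83 and 1.36. Ppap2b, a lipid phosphatase, fell by 0.44 and 0.28 as deposited but was higher with library totals (0.14 and 0.32). With library totals 5 of the 21 rose and 0 fell against scramble, and 7 rose and 1 fell against PBS. Gata4, a transcription factor of this endothelium, was not called (0.13 in both). Of 24 general endothelial genes 1 rose and 1 fell against scramble and 1 rose and 3 fell against PBS, with Ecscr at 0.44 and 0.41 and Flt1, the VEGFR1 receptor, at -0.51 and -0.48. With library totals 7 and 10 of the 24 rose and 0 fell. Over the 55 other endothelial genes of these lists 7 were higher and 5 lower against scramble (median -0.01), and 6 higher and 9 lower against PBS (median 0.02). As deposited, the shares called in these lists were below those of all genes, 32.0% against scramble and 37.1% against PBS.

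Kdr and Ptprb are part of VEGF and angiopoietin signalling, of which 16 genes were measured. Of these 5 fell and 1 rose against scramble, and 6 fell and 1 rose against PBS, Ptprb and Flt1 counted in both, and the median was -0.19 in each. Vegfa, the ligand of Kdr that hepatocytes also make, was 100 to 123 scaled CPM after PBS, 97.0 to 126 after scramble and 75.2 to 81.7 after the mimic, and fell by 0.55 and 0.51. Plcg1, a phospholipase downstream of Kdr, fell by 0.44 and 0.39, and Svep1, an extracellular protein that binds the Tie receptor system, rose by 0.57 and 0.67 from a low level. Tek, which encodes Tie2, was not called (-0.31 and -0.35), nor was Tie1 (0.09 in both). With library totals Vegfa (0.028 and 0.10) and Plcg1 (0.14 and 0.21) came out higher, and 2 and 6 of the 16 genes rose and 0 fell, so the direction of this list is relative to the deposited scaling.

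Around Bmp2, genes of the BMP and hepcidin pathway went both ways under the deposited scaling: of 26 measured, 5 rose and 7 fell against scramble, and 6 rose and 8 fell against PBS, with a median of -0.10 in each. With library totals 7 rose against scramble and 10 against PBS and 0 fell in either. Hamp, which encodes hepcidin, was 40.8, 139, 70.7 and 55.3 scaled CPM after PBS, 210, 98.7 and 61.5 after scramble, and 450, 343, 298 and 235 after the mimic, above all controls, and rose by 1.56 and 2.21. Hfe2, the hemojuvelin coreceptor for BMPs, rose by 0.57 and 0.51, Id1, a target gene of BMP signals, by 0.45 and 0.37, and Bmper, a secreted BMP-binding protein, by 1.35 and 1.44. In the same livers the ligand Bmp2 was at or below its control level as deposited, called only against PBS, while Hamp and Id1 were above theirs. With library totals Bmp2 was higher than in both control groups, not called (0.19 and 0.15). Bmp6 was on the list but had no row in the liver table.

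The partners of Ehd3 contrasted with it. Of 15 measured genes of endocytosis and scavenging, 7 rose and 2 fell against scramble and 8 rose and 1 fell against PBS, with medians of 0.31 and 0.46 (with library totals 9 and 12 rose and 0 fell). The paralogs Ehd1 (0.62 and 0.51), Ehd2 (1.09 and 1.14) and Ehd4 (1.22 and 1.08) all rose while Ehd3 fell, and with library totals the direction of each was the same, though Ehd3 was then not called. Ehd4 was 0.219 ± 0.098 (SD, n = 4) times Ehd3 after PBS, 0.172 ± 0.020 (n = 3) after scramble and 1.14 ± 0.46 (n = 4) after the mimic. Msr1, the class A scavenger receptor of macrophages, rose by 1.26 and 1.03.

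Genes of leukocyte adhesion and of ordinary capillaries were looked at because they mark activated or altered vessel walls. Of 6 measured genes of leukocyte adhesion, Icam1 (1.17 and 0.96), Vcam1 (1.13 and 1.11) and the chemokine Cxcl16 (1.05 and 0.95) rose in both comparisons and Selp fell (-0.25 and -0.27, but 0.26 in both with library totals). Of 10 measured genes of capillaries and larger vessels 4 rose and 1 fell in both comparisons: Cd34, a capillary sialomucin, rose by 0.69 and 0.75, Plvap, which forms the diaphragms of pores, by 0.53 and 0.56, Cd9, a tetraspanin, by 1.30 and 1.22 and Ly6a, a surface antigen, by 2.25 and 2.04. Cd300lg, a capillary lipid receptor, fell by 0.66 and 0.81. With library totals no gene of these 2 lists fell. Icam1, Vcam1, Cxcl16, Cd9 and Ly6a are also made by leukocytes or activated stellate cells, whose markers moved as described, and their part was not tested. Nor was the part of other cells in the rise of Cd34 and Plvap tested.

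**Figure D4:**
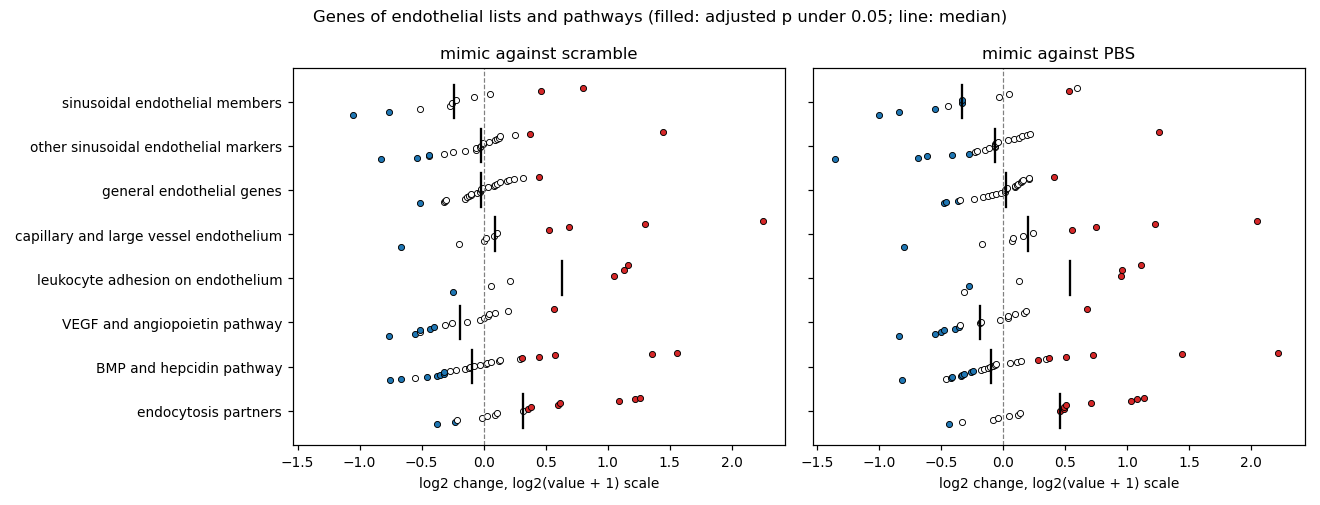
Log2 change (horizontal axes, log2(value + 1) scale) of each measured gene of the 10 members and of 7 endothelial and pathway lists in mimic against scramble and mimic against PBS. Filled points were called (red higher, blue lower), open points were not, and the vertical line is the list's median; the members and the VEGF list have medians below 0, and the endocytosis and adhesion lists above 0.

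The genes whose pattern over the 11 libraries was most like that of 2 members were found by the root mean square difference of centred log2 values among 12884 genes. For Stab2 they were Nrf1 (0.0776), Slc9a3r2 (0.0788), Dcaf12 (0.0790) and 9330175M20Rik (0.0800), where Stab2's own pattern had a size of 0.200. For Ehd3, whose pattern had a size of 0.557, they were the long noncoding RNA Fendrr (0.161), Lipg, which encodes endothelial lipase (0.172), and Ugt1a5 (0.174) and Ugt1a1 (0.175), which share exons and so share reads. Fendrr fell from 4.79 ± 0.78 (SD, n = 4) after PBS and 5.02 ± 0.62 (n = 3) after scramble to 1.97 ± 0.83 scaled CPM (n = 4) after the mimic, and Lipg from 6.49 ± 2.21 and 6.68 ± 0.45 to 2.77 ± 1.19. All 4 neighbours of Ehd3 were called lower in both comparisons, and of the neighbours of Stab2, Nrf1 and Dcaf12 were, though both were higher with library totals. The neighbours were chosen over these same libraries for likeness to members that were lower after the mimic. Lower levels were thus built into the choice, and these calls are no separate result.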

How the data were processed

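Per the labels' protocols, liver mRNA was made into 11 strand-specific libraries and sequenced from both ends on an Illumina HiSeq instrument. The submitters' processing notes name the build mm10 and, with no settings or order, Bowtie, edgeR 3.8.6, bedtools 2.17.0 and SAMtools 0.1.19. The authors deposited 1 table of 13636 genes whose values are a scaled signal, CPM multiplied by a factor per library. Each library had 1 step of which 100% of its values were multiples, to a tolerance of 1e-06.

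From these values log2(value + 1) was tested with limma 3.58.1 (R 4.3.3) (group means of 3 groups, trended empirical Bayes), and p-values were adjusted by Benjamini-Hochberg over the 13636 genes. This test was planned for plain CPM and kept for the scaled signal. The fit was tested on simulated data. Coordinates, exon lengths and 3′ UTRs are from GENCODE M21, and promoters and miRNAs from RefSeq. The members and all gene lists were chosen with earlier results of these data known, and the lists were written from memory. Named are all members and, of each other list, up to 4 measured genes with the smallest p in mimic against scramble, all called genes of lists with 5 or fewer, defining markers of other cell types, and the 4 genes most like Stab2 and Ehd3 with a mean of at least 1. Gata4, Hamp, Tie1, Id2, Id3, Atoh8, Smad7, Acvr2a and Bmpr2 were named after their values were seen. One gene that this rule selects is not reported here. Alternatives were another pseudocount, a minimum mean, other scalings, a block for the replicate number and leaving out libraries.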

Additional observations from a re-analysis of the deposited data

How the results depend on the processing

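Over all alternatives 37 member values lost a call, 9 gained one and 2 that had been called turned their direction. Values that had not been called changed sign in 11 cases against scramble, 8 against PBS and 14 between the controls. Genes called against scramble were 4363, and 2816 when only genes with a mean of at least 5 were tested (fewer genes), 2548 without mimic 1 and 4, and 2824 to 4904 when 1 library was left out. Against PBS they were 5059, then 3273, 2894 and 3758 to 5681. Library totals gave 5498 higher and 110 lower in place of 2363 and 2000 against scramble, and 6882 and 120 in place of 2733 and 2326 against PBS. Members called against scramble were 4, then 2 with library totals, 2 without mimic 1 and 4, and 2 to 5 when 1 library was left out. Against PBS they were 6, then 3, 3 and 3 to 8. Scramble against PBS gave 0 genes, and 0 to 1 when 1 library was left out (1 without PBS replicate 1). Ratios without overlap numbered 7 and 6 with Pecam1 and 4 and 2 with Cdh5 as divisor. Apart from the range, the cause was not tested.

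Of the called genes named here, library totals turned Ppap2b (0.14), Vegfa (0.028), Plcg1 (0.14), Selp (0.26), Nrf1 (0.22) and Dcaf12 (0.26) against scramble. Against PBS they turned Stab2 (0.25), Bmp2 (0.15), Ppap2b (0.32), Cdh5 (0.15), Vegfa (0.10), Plcg1 (0.21), Selp (0.26), Apob (0.13), Tat (0.20), Nrf1 (0.26), Dcaf12 (0.16) and 9330175M20Rik (0.071).

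The labels link same-numbered libraries only by the number. Of these pairs 1 of 3, 1 of 4 and 1 of 3 correlated over 0.1, each time those of replicate 3 (0.23, 0.26 and 0.12). With the replicate block 3808, 4584 and 0 genes and 4, 5 and 0 members were called, and Bmp2 against PBS was not (adjusted p = 0.0734, limma). The planned edgeR and DESeq2 tests were not run, because 9 of the 11 libraries had too few low values to check the reads derived from the steps. With 3 or 4 libraries a group, changes of the size of Stab2 or Bmp2 rest on single libraries.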

Other observations

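Markers of further cell types were looked at beside the members. Of 8 hepatocyte genes 0 were called against scramble and 2 fell against PBS, Apob by 0.48 and Tat by 0.41, and both were higher with library totals (0.13 and 0.20). Of the 4 lymphatic endothelial genes listed, Prox1 and Reln were measured, and both also mark other liver cells, hepatocytes and stellate cells. Prox1 fell by 0.70 against scramble (-0.28 against PBS, not called), and Reln fell by 0.94 and 0.62. Of the bile duct list only Sox9 was measured (0.32, not called, and 0.47, called), of the platelet list only Itga2b (-0.03 and -0.07, not called), and of the lymphocyte list only Ptprc, the CD45 antigen of all leukocytes, which rose by 1.28 and 1.02.

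A library was taken to stand apart from the other 3 of its group when its gap to them reached 0.829 of the group's range. By this rule none did for any member, in 20 groups of 4 libraries looked at. Mimic replicate 2 still lay above the other mimic libraries for Stab1 (24.7 against 15.7 to 17.5) and Stab2 (25.1 against 17.9 to 20.0).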
